A study of Mus musculus with 7 samples.

Results

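The change of the interferon gamma (IFNγ) effect between 23.5 h and 91 h was followed gene by gene in B16 cells, a mouse melanoma line of C57BL/6 origin kept as 1 stable clone. The effect of a gene at 1 time was the log2 ratio of its level in IFNγ-pulsed cells to its level in mock-pulsed cells, and the change was that log2 ratio at 91 h minus that at 23.5 h. Genes were taken when they were listed in all 4 deposited tables of IFNγ and mock at both times and had a level of at least 20 normalised reads in 1 or more of the 4 groups. This left 12561 of the 13587 genes in any table, and 12515 of them could be tested. The comparison used 4 groups. The IFNγ groups got a 5 h pulse of 10 nM recombinant mouse IFNγ while in suspension, then 3 washes and seeding at 35000 cells per well, and were sampled at 91 h or 23.5 h. The mock groups got a pulse of plain medium of the same length and were otherwise treated and sampled alike. The start of the count of hours is not labelled. T0 cells (0 h) put the tables on 1 scale and enter no effect. The study's title poses the question behind the comparison, whether brief contact with a cytokine leaves a response that lasts.

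IFNγ is a cytokine of T and NK cells that binds the receptor chains Ifngr1 and Ifngr2, activates the kinases Jak1 and Jak2 and acts on genes through GAS elements in DNA. An early target is Irf1, a transcription factor that acts on further genes. Type I interferons act through another receptor and through ISRE elements, and many antiviral genes answer to both routes. In melanoma cells IFNγ is known for raising antigen presentation on MHC class I, the immunoproteasome, guanylate-binding and immunity-related GTPases and the checkpoint ligand PD-L1.

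Each group was labelled as 1 sample, but nearly every deposited mean could be solved into the whole reads of 2 libraries, so each group has a value for library 1 and library 2, in that order, in normalised reads. The 8 libraries held 12894823 to 20007382 reads in solved genes. The log2 ratio between both libraries of a group, taken over genes at 1000 or more, scattered with an SD of 0.0871 for IFNγ and 0.0875 for mock at 91 h, and of 0.0668 for IFNγ and 0.0958 for mock at 23.5 h. Whether the libraries stem from separate cultures is not stated, and the p-values rest on the spread between them alone, which may be technical. A bulk level cannot tell more transcripts per cell from more cells that hold them. Of the 8 melanoma cell markers (Pmel, Mlana, Dct, Tyr, Tyrp1, Mitf, Sox10 and S100b) all 8 were listed. Of 13 T cell markers 1 was listed in these groups, of 13 myeloid markers 2, of 10 fibroblast markers 6 and of 8 endothelial markers 1, while 0 of 7 NK cell and 0 of 8 keratinocyte markers were. The summed level of the listed T cell, myeloid, fibroblast and endothelial markers differed between the groups. For the T cell marker it was 116 with IFNγ and 130 with mock at 91 h, against 63.1 with IFNγ and 35.1 with mock at 23.5 h. Myeloid markers summed to 97.1 with IFNγ and 35.04 with mock at 91 h, against 27.5 with IFNγ and 43.4 with mock at 23.5 h. A marker counted as listed when 1 or more of the 4 groups held it, and a missing value added nothing to a sum. The myeloid sums did not cover the same genes in each group. Only 1 myeloid marker could be tested. Its log2 ratio was 1.445 at 91 h, where it was called higher with IFNγ, against 0.24 at 23.5 h. Its IFNγ level rose by 1.78 on the log2 scale and its mock level by 0.58, and its change of 1.21 was not called. Fibroblast markers summed to 370 with IFNγ and 439 with mock at 91 h, against 398 with IFNγ and 430 with mock at 23.5 h. The endothelial marker stood at 193 with IFNγ and 166 with mock at 91 h, against 341 with IFNγ and 236 with mock at 23.5 h. Of these markers Acta2 of the fibroblast list was called lower by the rule given below (-1.51). The part of other cells in the results was not tested.

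The promoters below show the letters that interferon and hypoxia genes carry before their starts. The sequences are the 250 bases before the RefSeq transcription start on build GRCm38.p6, 5′ to 3′ on the strand of the gene, and capitals mark matches to the ISRE core (GAAA, any 2 bases, GAAA), to GAS (TTCNNNGAA), to the kB element (GGGA, any 4 bases, CC) or to the core of the hypoxia response element (ACGTG) on either strand. Igtp (chr11:58199306-58199555, plus strand) is shown as the gene whose effect fell furthest, Isg15 (chr4:156200819-156201068, minus strand) as a gene whose mock level rose, Irf1 (chr11:53769764-53770013, plus strand) and Psmb10 (chr8:105938393-105938642, minus strand) as genes whose IFNγ level fell alone, and Bnip3 (chr7:138909507-138909756, minus strand) as a hypoxia gene whose effect rose. Isg15, Psmb10 and Bnip3, and the motif ACGTG, were chosen after values were seen.
Igtp: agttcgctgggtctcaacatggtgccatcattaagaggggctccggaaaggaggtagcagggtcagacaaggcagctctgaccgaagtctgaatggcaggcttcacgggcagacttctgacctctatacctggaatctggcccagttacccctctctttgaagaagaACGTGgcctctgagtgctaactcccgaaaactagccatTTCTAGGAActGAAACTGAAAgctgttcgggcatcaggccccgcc
Isg15: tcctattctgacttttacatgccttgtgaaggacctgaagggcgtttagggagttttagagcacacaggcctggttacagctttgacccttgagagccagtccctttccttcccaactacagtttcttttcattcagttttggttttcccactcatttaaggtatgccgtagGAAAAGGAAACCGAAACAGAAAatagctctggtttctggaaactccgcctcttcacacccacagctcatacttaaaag
Irf1: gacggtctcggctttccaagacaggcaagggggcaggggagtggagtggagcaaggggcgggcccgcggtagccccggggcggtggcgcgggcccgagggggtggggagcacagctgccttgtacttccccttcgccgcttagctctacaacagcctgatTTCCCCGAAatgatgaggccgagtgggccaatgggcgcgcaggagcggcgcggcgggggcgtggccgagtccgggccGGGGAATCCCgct
Psmb10: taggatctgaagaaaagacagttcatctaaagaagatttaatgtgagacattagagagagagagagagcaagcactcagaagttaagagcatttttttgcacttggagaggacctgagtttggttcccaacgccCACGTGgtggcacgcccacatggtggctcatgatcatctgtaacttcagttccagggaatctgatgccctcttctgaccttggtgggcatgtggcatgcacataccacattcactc
Bnip3: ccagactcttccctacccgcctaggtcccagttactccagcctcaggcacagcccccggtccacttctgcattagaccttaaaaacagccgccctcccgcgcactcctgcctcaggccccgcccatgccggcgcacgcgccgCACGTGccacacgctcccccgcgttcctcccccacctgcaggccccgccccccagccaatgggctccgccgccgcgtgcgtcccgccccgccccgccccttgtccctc
The Igtp promoter held ACGTG at -83 to -79, a GAS match at -45 to -37 and an ISRE match at -34 to -25, counted from the start. The Isg15 promoter held 3 ISRE matches between -78 and -57, which overlap each other, so they print as 1 run of capitals. In Irf1 a GAS match lay at -90 to -82 and a kB match at -13 to -4. The Psmb10 window held no ISRE, GAS or kB letters, only ACGTG at -116 to -111, which reads on both strands. Bnip3 held ACGTG at -108 to -103, again on both strands. In windows that reach 50 bases further past the start, 3.99% of all 27025 RefSeq promoters held the ISRE letters, 9.55% GAS, 22.9% kB and 21.8% ACGTG. A match describes the letters and is not a binding site.

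The IFNγ effect became smaller in far more interferon genes than it became larger, and the mock level was the one that usually moved. A gene is called here when limma's adjusted p for the change, over all 12515 genes and 8 libraries, was under 0.05 and the change of the log2 ratio of the group means was at least 1 in size, that is 2-fold. The effect was lower at 91 h than at 23.5 h in 125 genes, 0.999% of those tested, and higher in 57, 0.455%. By limma alone, at any fold, the effect was lower in 670 genes (5.35%) and higher in 493 (3.94%). The median change over all genes tested was -0.01. The count of 57 is the less stable one: it was 24, 27 and 28 without the first library of mock at 23.5 h, of IFNγ at 91 h and of IFNγ at 23.5 h, 20 without limma's variance trend and 12 in 1 fit that also took in the T0 and 48 h libraries. That fit gave 80 lower genes, and by limma alone 108 lower and 32 higher, while the fit without the variance trend gave 233 lower and 112 higher by limma alone. Among genes past limma's threshold, the 5 just inside the 2-fold limit had sizes of 1.00 to 1.02 and the 5 just outside it 0.989 to 0.997.

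**Figure D1:**
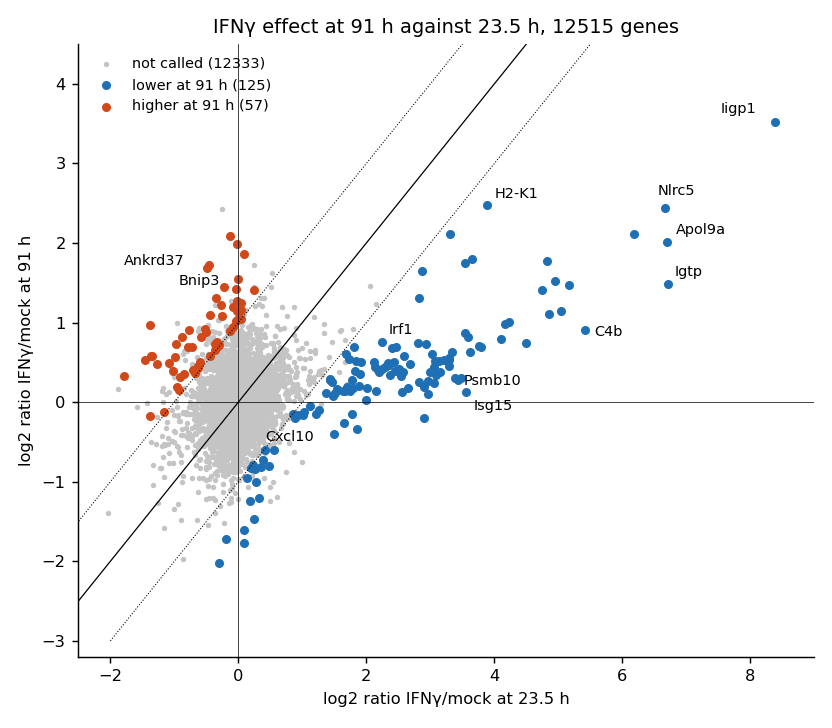
Log2 ratio of IFNγ over mock at 91 h (vertical) against that at 23.5 h (horizontal) for 12515 genes, with no change on the solid line and a 2-fold change on the dotted lines. The 125 genes with a lower effect at 91 h (blue) lie mostly at high ratios at 23.5 h, and the 57 with a higher effect (orange) lie near or below 0 at 23.5 h.

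In the plot of the effect at 91 h against 23.5 h, most genes with a lower effect had a high ratio at 23.5 h and a small one at 91 h. Of the 125 genes, 105 were called higher with IFNγ than with mock at 23.5 h (background 1.14%), and 18 of those were called higher at 91 h as well (background 0.487%). Another 8 of the 125 were called lower with IFNγ than with mock at 91 h (background 0.216%). The ratios at both times are part of the change that chose the 125 genes, so these counts are a description and nothing is read from the backgrounds. Seen from 23.5 h, 143 genes were called higher with IFNγ at that time, and 21 of them were also called at 91 h. By limma alone 89 of the 143 were still higher at 91 h (background 9.37%), with a median log2 ratio of 0.44 at 91 h against 2.14 at 23.5 h. These medians rest on genes picked for a high value at 23.5 h and are a description.

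Each change of the effect is the change of the IFNγ level minus the change of the mock level. A level counts as moved when its own limma adjusted p was under 0.05 and it differed 2-fold between 91 h and 23.5 h. Among all genes tested the IFNγ level moved up in 5.68% and down in 9.51%, and the mock level moved up in 6.62% and down in 10.5%. Of the 125 genes with a lower effect, the mock level alone moved in 60, the IFNγ level alone in 17, both in 35 and neither past these limits in 13. In 64 of the 125 both levels were higher at 91 h than at 23.5 h, in 52 the IFNγ level was lower and the mock level higher, and in 9 both were lower. The median log2 change from 23.5 h to 91 h was 0.15 for the IFNγ level and 2.05 for the mock level. In a fit that also took in the T0 and 48 h libraries the call was lost in 11 of the 42 named genes, among them Psmb10, Il18bp, H2-K1, H2-D1 and Casp4, and C4b, B2m and H2-T23 could not be fitted.

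**Figure D2:**
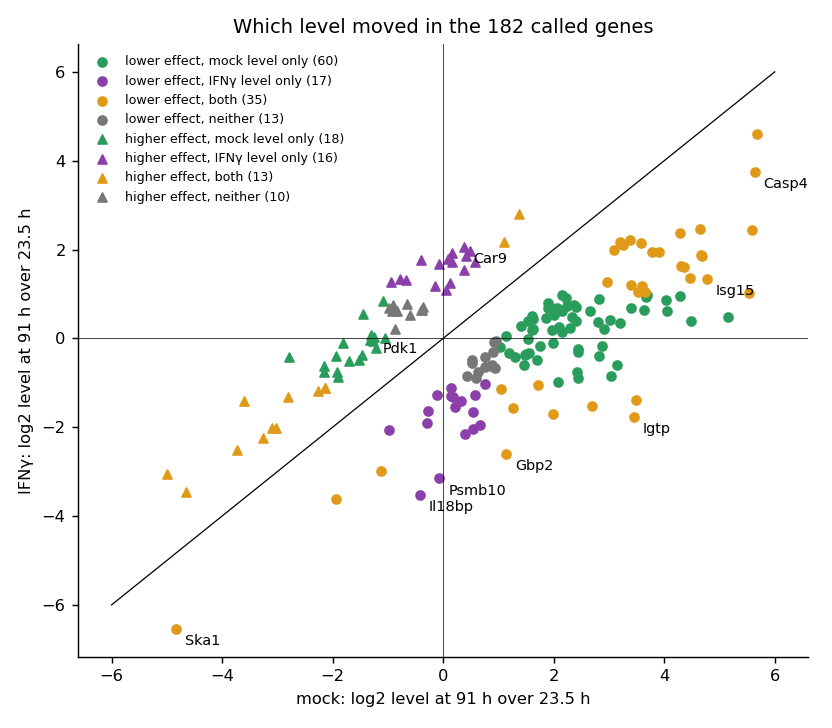
Log2 change of the IFNγ level (vertical) against that of the mock level (horizontal), each 91 h over 23.5 h, for the 182 called genes, with circles for a lower effect and triangles for a higher one, and colours for the level that moved. Most circles lie to the right, where the mock level rose, such as Isg15, and Psmb10 and Il18bp lie near 0 for mock and far down for IFNγ.

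The interferon-inducible GTPases, which act on vacuoles that hold pathogens, had the lowest median change among the lists with at least 5 tested genes. All 8 that could be tested were called lower, with a median change of -3.74 between a log2 ratio of 1.13 at 91 h and 4.94 at 23.5 h. The list holds 22 genes, and 18 were listed in any table. Some members had no mock value at 23.5 h or at both times and could not be tested. Among these the IFNγ level fell in Tgtp1 (-3.51), changed little in Gbp6 (-0.16) and rose in Gbp9 (1.37). For this list and those below, the shares over all genes tested were 0.999% called lower and 0.455% called higher. In all 8 the mock level rose 2-fold or more and in 4 the IFNγ level fell 2-fold or more. Igtp (chromosome 11, 58199556 to 58207591, plus strand, GRCm38), a protein-coding gene like all those named with a position here, stood at 1894 and 1799 normalised reads with IFNγ and 675 and 639 with mock at 91 h, against 6352 and 6257 with IFNγ and 61.6 and 56.9 with mock at 23.5 h. Both levels moved towards each other and the IFNγ and mock libraries did not overlap at either time. The change was -5.22 (SE 0.09, limma adjusted p = 1.6e-13), made of a fall of the IFNγ level (-1.77) and a rise of the mock level (3.45). Igtp overlaps Irgm2 on the same strand, and how reads shared by overlapping genes were counted is not given in the sources used here, so both are uncertain to that extent.

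Iigp1, an immunity-related GTPase, stood at 2610 and 2443 with IFNγ and 244 and 195 with mock at 91 h, against 6606 and 6560 with IFNγ and 21.8 and 15.7 with mock at 23.5 h. Its IFNγ libraries were above its mock libraries at both times, and it kept the highest ratio of these GTPases at 91 h (log2 ratio 3.52, against 8.38 at 23.5 h; change -4.86, SE 0.18, limma adjusted p = 3.3e-10). Gbp2, a guanylate-binding protein gene, was at 1471 and 1397 with IFNγ and 687 and 643 with mock at 91 h, against 8586 and 8744 with IFNγ and 309 and 292 with mock at 23.5 h. Here the IFNγ level supplied more of the change (-2.59) than the mock level (1.14). In Irgm1 the larger part was on the mock side, at 8912 and 8716 with IFNγ and 5807 and 5037 with mock at 91 h, against 17357 and 17232 with IFNγ and 1359 and 1198 with mock at 23.5 h. The remaining tested GTPase genes were Irgm2 (-3.89), Gbp3 (-3.75), Ifi47 (-3.69) and Gbp7 (-3.18), each with a risen mock level.

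Among MHC class I chains, which carry peptides to the cell surface, 6 of 9 tested genes were called lower. The mock level rose 2-fold or more in 7 and the IFNγ level moved past the limits in 0. In the fit with the T0 and 48 h libraries the calls of H2-K1, H2-D1 and H2-T22 were lost (limma adjusted p = 0.056 for H2-K1 and 0.093 for H2-D1), H2-Q4 kept its call, and B2m and H2-T23 could not be fitted. The median log2 ratio was 1.65 at 91 h against 2.87 at 23.5 h, and 7 of the 9 were called higher with IFNγ at 91 h. H2-K1 (chromosome 17, 33996017 to 34000347, minus strand), a classical heavy chain, stood at 14944 and 13432 with IFNγ and 2607 and 2493 with mock at 91 h, against 12096 and 12610 with IFNγ and 983 and 683 with mock at 23.5 h. The change of -1.41 (SE 0.16, limma adjusted p = 5.1e-05) came with an IFNγ level that differed by 0.20 between the times (limma adjusted p = 0.13). B2m, the light chain, was at 59971 and 57528 with IFNγ and 23787 and 23504 with mock at 91 h, against 34482 and 36060 with IFNγ and 5149 and 4795 with mock at 23.5 h. Its level was thus higher at 91 h in both arms, by 0.74 with IFNγ and 2.25 with mock on the log2 scale. H2-D1 changed by -1.19, the nonclassical H2-T23 by -3.05 and H2-Q4 by -1.85, each by its mock level alone.

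In the immunoproteasome and peptide loading genes, which cut and carry peptides for class I, the IFNγ level fell 2-fold or more in 8 of 12 and the mock level rose in 3. Of the 12, 9 were called lower, with a median log2 ratio of 0.36 at 91 h against 2.94 at 23.5 h. Psmb10 (chromosome 8, 105935735 to 105938444, minus strand), a catalytic subunit of the immunoproteasome, stood at 343 and 322 with IFNγ and 282 and 256 with mock at 91 h, against 2901 and 3017 with IFNγ and 258 and 308 with mock at 23.5 h. The mock libraries lay in the same range at both times, and the change of -3.08 (SE 0.13, limma adjusted p = 8.5e-10) was almost all a change of the IFNγ level of -3.15. The IFNγ level alone moved in Erap1, an aminopeptidase that trims peptides (-2.55), in Psme1 (-1.83) and Psme2 (-2.57), which form the PA28 activator of the proteasome, and in Tapbpl (-2.19). The peptide transporter genes were different again. Tap1 was at 2467 and 2081 with IFNγ and 892 and 813 with mock at 91 h, against 4219 and 4169 with IFNγ and 168 and 145 with mock at 23.5 h, so its change of -3.32 was mostly a rise of the mock level (2.44). Tap2 changed by -3.22 and also rose in mock (2.82). Tapbp, which links the transporter to class I, moved on both sides, by -1.56 with IFNγ and 1.26 with mock. Psme2 and Psme2b are near-identical copies, as are Apol9a and Apol9b below, so reads could be split between them.

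**Figure D3:**
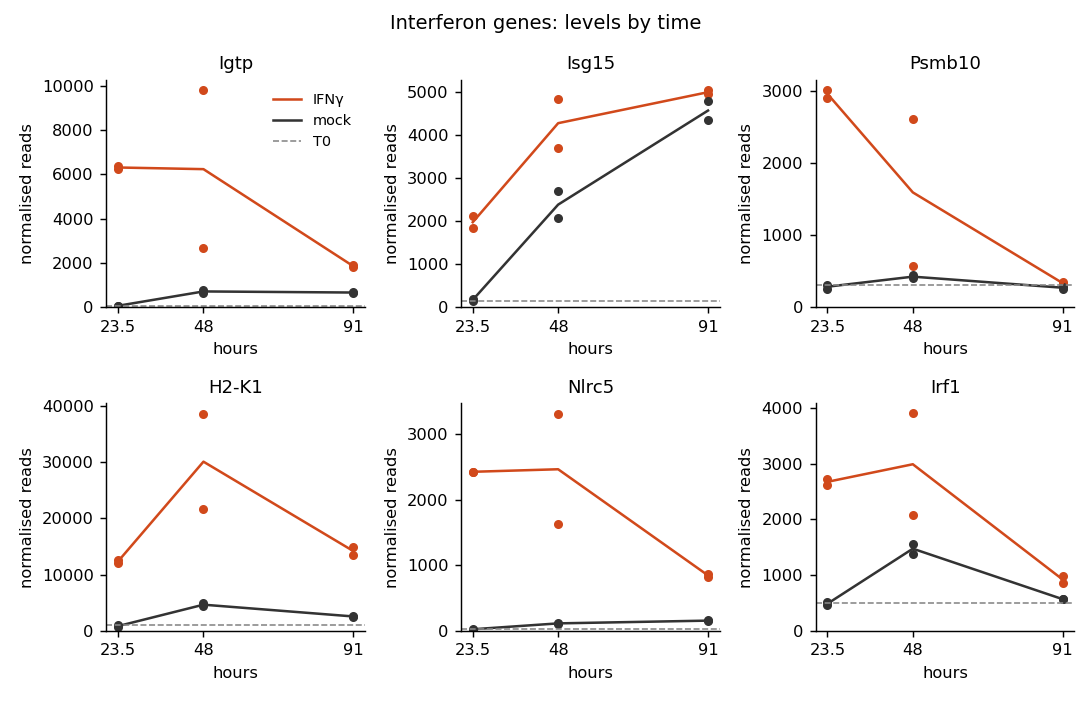
Levels in normalised reads at 23.5, 48 and 91 h with IFNγ (orange) and mock (black) for 6 genes, with each library a point, lines through the group means and T0 dashed. Igtp closes from both sides, Isg15 rises in mock to the level with IFNγ, Psmb10 falls with IFNγ to near the mock level, and Irf1 falls with IFNγ but stays above it. The 48 h points are shown for orientation only, since the IFNγ libraries at 48 h lay far apart.

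The plot of interferon genes by time shows these forms side by side. The IFNγ libraries of 48 h lay apart, with an SD of 0.419 over the same class of genes and 122 of these 2-fold or more apart, so 48 h values enter only the alternative fit over all 14 libraries.

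The transcription factors of the pathway took different courses. Irf1, the early IFNγ target, stood at 984 and 855 with IFNγ and 564 and 570 with mock at 91 h, against 2724 and 2621 with IFNγ and 512 and 460 with mock at 23.5 h. The groups did not overlap at either time, and the change of -1.76 (SE 0.10, limma adjusted p = 4.5e-08) was a fall of the IFNγ level alone. Nlrc5 (chromosome 8, 94434356 to 94527272), the transactivator of class I genes, was at 829 and 863 with IFNγ and 162 and 149 with mock at 91 h, against 2429 and 2429 with IFNγ and 27.5 and 18.6 with mock at 23.5 h. Both of its levels moved, the change was -4.22, and the log2 ratio of 2.44 at 91 h came with IFNγ libraries well above the mock libraries. Irf7, which amplifies type I interferon responses, changed by -2.43 with a rise in both arms, of 1.17 with IFNγ and 3.60 with mock. Of 10 genes in the list of IRF and class I and II transcription factors these 3 were called and the other 7 were not.

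Within IFNγ signalling 5 of 18 genes were called lower, among them Usp18, Socs1, Stat2 and Irf9. Stat2 (-1.85) and Irf9 (-1.50), transcription factors of the type I interferon response, moved by the mock level alone. Usp18, which damps type I interferon receptor signalling, rose in both arms, by 2.46 with IFNγ and 4.65 with mock. Socs1, the feedback inhibitor of JAK kinases, had 57.3 and 43.0 with IFNγ and 45.9 and 42.1 with mock at 91 h, against 91.7 and 65.0 with IFNγ and 23.7 and 23.5 with mock at 23.5 h. It changed by -1.50 (SE 0.34, limma adjusted p = 0.013), and neither level moved 2-fold on its own. Its call was lost without the first IFNγ library at 23.5 h (-1.24). The receptor genes Ifngr1 (0.07) and Ifngr2 (0.24) and the kinase genes Jak1 (0.07) and Jak2 (-0.11) did not pass the test.

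Antiviral interferon-stimulated genes made up the largest group, and their mock level climbed in nearly all. Of 49 tested, 37 were called lower, the mock level rose 2-fold or more in 42, and the IFNγ level rose in 13 and fell in 1. The median log2 ratio was 0.31 at 91 h against 2.19 at 23.5 h. Isg15 (chromosome 4, 156199424 to 156200818, minus strand), a ubiquitin-like modifier, stood at 5043 and 4954 with IFNγ and 4802 and 4341 with mock at 91 h, against 1838 and 2111 with IFNγ and 188 and 146 with mock at 23.5 h. Both arms were thus far higher at 91 h, and the IFNγ and mock levels no longer passed the test against each other (log2 ratio 0.13, limma adjusted p = 0.38). The change was -3.43 (SE 0.13, limma adjusted p = 5.5e-10), from rises of 1.34 with IFNγ and 4.77 with mock. Ifi44, a gene of the antiviral state, was at 1383 and 1357 with IFNγ and 1212 and 1047 with mock at 91 h, against 214 and 291 with IFNγ and 30.3 and 14.7 with mock at 23.5 h. Rtp4 (-3.17), which binds viral RNA, changed by its mock level alone, and so did Oasl2 (-3.43) and Bst2 (-2.42), which tethers budding virus. The IFNγ level was also higher at 91 h in Rtp4 (0.87), Oasl2 (0.61) and Bst2 (0.38), by less than 2-fold. Ifit1 (-1.82), Ifit3 (-2.83), Oas2 (-3.10), Mx2 (-1.97) and Ifitm3 (-2.48) rose in both arms, more so in mock. Ifit2 (-0.22) and Ifitm2 (0.19) did not pass.

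Of 11 sensors of nucleic acids and microbial products, 6 were called lower and 1 higher. Ddx58, which encodes RIG-I, changed by -1.69 with a rise in both arms, and Ifih1 (-1.70), which encodes MDA5, Dhx58 (-2.70) and Ddx60 (-2.75) by the mock level alone. Ifi203 (-3.32), a DNA-binding HIN200 family gene, likewise rose in mock. The IFNγ level was also higher at 91 h in Dhx58 (0.99), Ddx60 (0.92) and Ifi203 (0.96), just short of 2-fold. Tlr1, a receptor for bacterial lipopeptides, was the only gene of the interferon lists with a higher effect among the 57. It stood at 32.0 and 41.8 with IFNγ and 8.74 and 8.43 with mock at 91 h, against 23.4 and 26.2 with IFNγ and 23.7 and 26.5 with mock at 23.5 h. The mock level alone fell 2-fold, the change was 2.00 (SE 0.42, limma adjusted p = 0.0089), and none of the motifs lay in the 250 bases before its start.

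Complement and apolipoprotein L genes gave some of the largest changes. C4b, the complement component, stood at 2484 and 2087 with IFNγ and 1183 and 1263 with mock at 91 h, against 1084 and 1176 with IFNγ and 28.4 and 22.5 with mock at 23.5 h. Both levels rose, by 1.02 with IFNγ and 5.53 with mock, so the change was -4.51. C4b has a close copy in C4a, and the reads of both could be split. Apol9a was at 2705 and 2680 with IFNγ and 673 and 657 with mock at 91 h, against 1904 and 1970 with IFNγ and 22.7 and 12.7 with mock at 23.5 h. The mock level alone moved (5.15), for a change of -4.68, and Apol9b changed by -4.08 in the same way. In all, 2 of 5 complement genes and 2 of 2 apolipoprotein L genes were called lower.

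Genes of immune evasion, chemokines and cell death held fewer calls. Cd274, which encodes PD-L1, stood at 1074 and 1073 with IFNγ and 625 and 702 with mock at 91 h, against 775 and 748 with IFNγ and 234 and 202 with mock at 23.5 h. Its mock level alone moved, by 1.60, and the change was -1.11 (SE 0.12, limma adjusted p = 2.8e-05). Il18bp, a secreted inhibitor of interleukin 18, was at 16.5 and 19.7 with IFNγ and 25.1 and 16.9 with mock at 91 h, against 218 and 218 with IFNγ and 28.4 and 28.4 with mock at 23.5 h. The 2 arms overlapped at 91 h, and the change of -3.10 came with changes of -3.52 in the IFNγ level and -0.42 in the mock level. Serpinb9, an inhibitor of granzyme B, changed by -1.49 with neither level past 2-fold. Cxcl10, a chemokine that draws T cells, was at 2605 and 2518 with IFNγ and 3354 and 2958 with mock at 91 h, against 7158 and 7466 with IFNγ and 5953 and 6325 with mock at 23.5 h. Its log2 ratio was -0.30 at 91 h against 0.25 at 23.5 h, and the change of -0.55 (limma adjusted p = 0.00065) was below the 2-fold rule. Called lower were 2 of 7 checkpoint and immune evasion genes, 2 of 10 chemokine and cytokine genes (Il18bp, and Csf1, just past the limit) and 2 of 20 cell death genes (Casp12 at -2.77 and Casp4 at -1.88). Casp4, the inflammatory caspase that senses lipopolysaccharide, rose in both arms, to 1040 and 1021 with IFNγ and 1288 and 1427 with mock at 91 h, against 77.3 and 74.0 with IFNγ and 34.1 and 18.6 with mock at 23.5 h.

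Of the 125 genes with a lower effect, 84 stood in at least 1 of the interferon lists. These made up 47 of the 60 that moved by the mock level alone, 22 of the 35 that moved on both sides, 9 of the 17 that moved by the IFNγ level alone and 6 of the 13 that moved on neither. Several of the others belong to families known as interferon-inducible, such as Phf11d (-2.98), Trim34a (-2.21), Trim12c (-2.03), Trim5 (-2.01) and Rnf213 (-1.92), which were named after their values were seen. Promoter windows were found for 50 of the 60 genes moved by the mock level alone. Of these, 24 (48%) held the ISRE letters and 6 (12%) the GAS letters, against 3.99% and 9.55% of all promoters. The 9345 windows found for genes tested (3.58% and 8.18%) cover fewer than the 80% needed, so nothing is read from them. Of the 13 genes moved on neither side 12 had a window, and 3 (25%) held the ISRE letters. Genes moved on both sides (24 of 35 with a window, 12 with ISRE letters) and by the IFNγ level alone (12 of 17, and 2) had too few windows. The letters are thus not shown to be particular to genes moved by the mock level alone. Over all 125 genes the same check is void, because only 98 matched a window, fewer than the 80% needed.

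**Figure D4:**
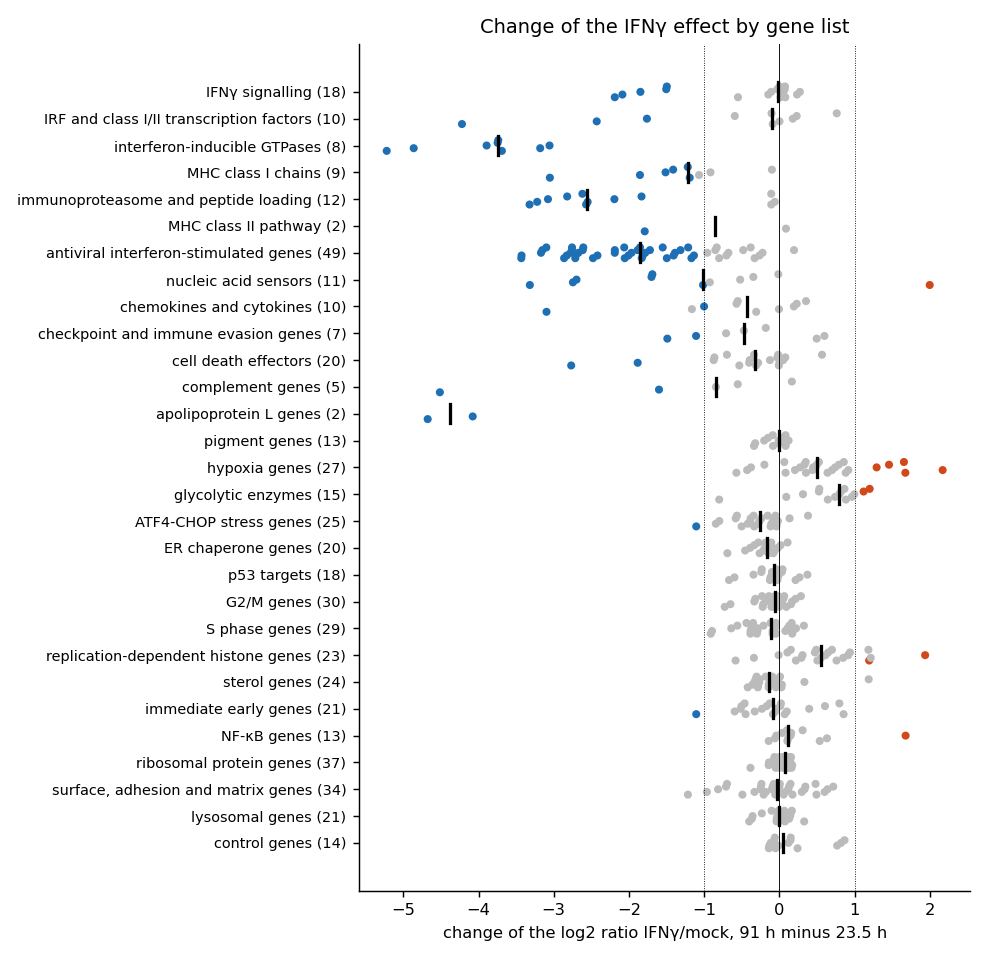
Change of the log2 ratio IFNγ over mock, 91 h minus 23.5 h, for each tested gene of each list (points; number of genes in brackets), with called genes in blue (lower) or orange (higher), list medians as black bars and dotted lines at 2-fold. GTPases have the lowest median among the lists with at least 5 genes, at -3.74, and glycolytic enzymes the highest, at 0.80.

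A smaller set of genes had a higher log2 ratio at 91 h than at 23.5 h, and genes of hypoxia and glycolysis were among them. Hypoxia-inducible factors stabilise when oxygen is short and raise genes of glucose uptake, glycolysis and mitophagy through ACGTG elements. Of 27 hypoxia genes 5 were called higher and 0 lower, and of 15 glycolytic genes 2 were called higher and 0 lower. Over all genes tested 0.455% were called higher and 0.999% lower. By limma alone 14 of 27 and 11 of 15 were higher (3.94% of all genes tested), against 2 (Ndrg1 and Pfkfb3) and 1 (Eno2) lower (5.35%). The median log2 ratio was 0.53 at 91 h against -0.04 at 23.5 h for hypoxia genes, and 0.74 at 91 h against 0.04 at 23.5 h for glycolytic genes. The mock level was lower at 91 h than at 23.5 h in 15 of 27 hypoxia and 13 of 15 glycolytic genes, and the IFNγ level in 7 of 27 and 9 of 15. Over all genes tested the median log2 change between the times was 0.002 for mock and -0.02 for IFNγ. Many genes of any kind thus lay below 0, and nothing is read from 15 of 27.

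Ankrd37, a hypoxia-induced ankyrin gene, stood at 89.3 and 152 with IFNγ and 26.2 and 47.8 with mock at 91 h, against 34.2 and 35.2 with IFNγ and 50.2 and 48.0 with mock at 23.5 h. The arms lay apart at both times, in opposite order, but at 23.5 h they did not pass the test (log2 ratio -0.49, limma adjusted p = 0.32). The IFNγ level alone moved 2-fold. The change was 2.17 (SE 0.41, limma adjusted p = 0.004). Car9 (chromosome 4, 43506966 to 43513729, plus strand), a carbonic anhydrase used as a marker of hypoxia, was at 1178 and 1073 with IFNγ and 334 and 490 with mock at 91 h, against 294 and 246 with IFNγ and 378 and 256 with mock at 23.5 h. The arms overlapped at 23.5 h and not at 91 h, the IFNγ level differed by 2.05 and the mock level by 0.38, and the change was 1.68 (SE 0.25, limma adjusted p = 0.0007). Bnip3, a mitophagy receptor, stood at 2714 and 2695 with IFNγ and 817 and 1200 with mock at 91 h, against 1689 and 1813 with IFNγ and 2051 and 1539 with mock at 23.5 h. The IFNγ level was higher and the mock level lower at 91 h, neither by 2-fold, and the change was 1.46 (SE 0.20, limma adjusted p = 0.00035). In Pdk1, a pyruvate dehydrogenase kinase gene, the mock level alone moved (-1.26, against 0.03 with IFNγ), for a change of 1.29.

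Among glycolytic genes, Slc16a3, a lactate exporter, was at 1521 and 1607 with IFNγ and 559 and 761 with mock at 91 h, against 2174 and 2257 with IFNγ and 2396 and 1908 with mock at 23.5 h. The mock level alone moved (-1.70), and the change was 1.20 (SE 0.17, limma adjusted p = 0.00038). Pfkl, the liver form of phosphofructokinase, stood at 8671 and 7796 with IFNγ and 3279 and 4115 with mock at 91 h, against 5676 and 5777 with IFNγ and 5992 and 5187 with mock at 23.5 h. Its log2 ratio was 1.16 at 91 h against 0.03 at 23.5 h, with the arms overlapping at 23.5 h and apart at 91 h. Gapdh changed by 0.87 and Eno1 by 0.89, below the 2-fold rule, both with a mock level lower by over 2-fold at 91 h. Windows were found for all 7 called hypoxia and glycolysis genes, and 4 of the 7 held ACGTG, against 21.8% of all promoters and 30.4% of the 9345 windows found for the 12515 genes tested, fewer than the 80% needed, so nothing is read from this share. At 91 h the mock libraries lay further apart than the IFNγ libraries in Bnip3, Pdk1, Slc16a3, Car9 and Adm. In all 7 called genes the first mock library was below the second at 91 h and above it at 23.5 h. The 7 genes thus shifted together between mock libraries, so their calls are not independent of each other. Without the first mock library at 91 h the sizes of Pfkl (0.97) and Slc16a3 (0.996) were under the limit, and without a variance trend Slc16a3, Bnip3, Car9, Ankrd37 and Adm no longer passed. Each of the 7 calls, that of Pdk1 included, was lost under at least 1 alternative setting.

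**Figure D5:**
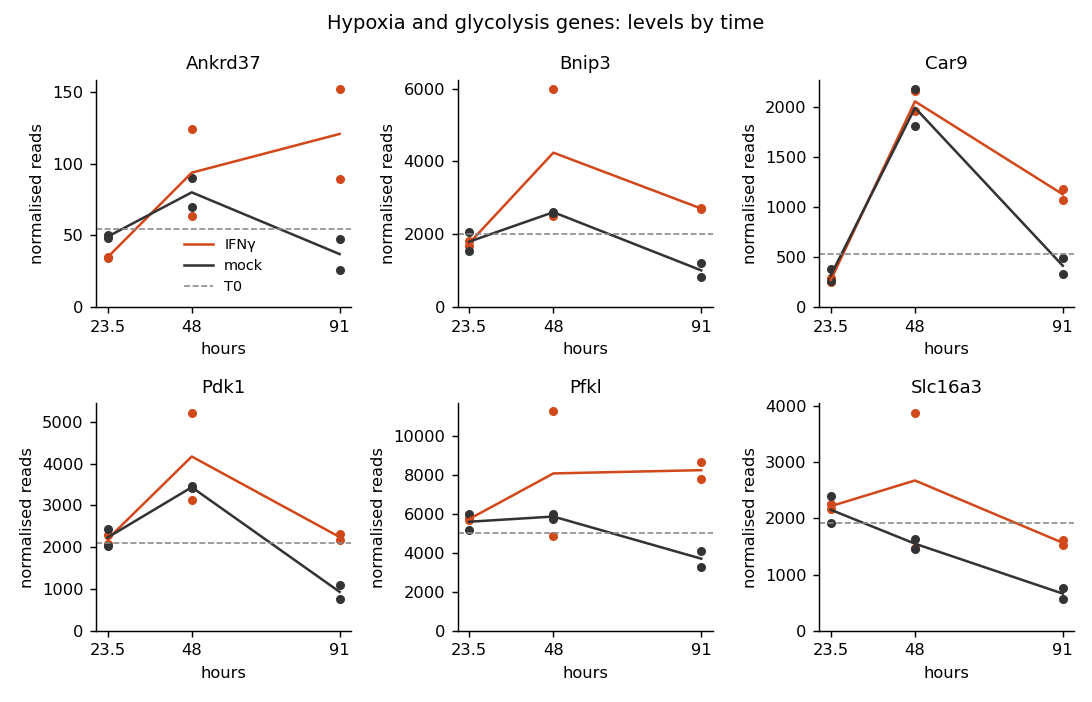
Levels in normalised reads at 23.5, 48 and 91 h with IFNγ (orange) and mock (black) for 6 genes of the hypoxia and glycolysis lists, with each library a point, lines through the group means and T0 dashed. At 91 h both IFNγ libraries lie above both mock libraries in all 6 genes, and at 23.5 h the arms overlap in all but Ankrd37.

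Over all 57 genes with a higher effect, the mock level alone moved in 18, the IFNγ level alone in 16, both in 13 and neither in 10. In 25 both levels were lower at 91 h than at 23.5 h, in 20 the IFNγ level was higher and the mock level lower, and in 12 both were higher. Called higher with IFNγ at 91 h were 21 of the 57 and called lower with IFNγ at 23.5 h were 10 (background 0.248%), while 26 were called at neither time. These ratios too are part of the change that chose the genes. The highest change was that of Gm22973, an snRNA gene, at 13.2 and 11.1 with IFNγ and 4.37 and 7.02 with mock at 91 h, against 14.4 and 19.0 with IFNγ and 49.3 and 41.2 with mock at 23.5 h (change 2.36, SE 0.51, limma adjusted p = 0.0097). Next came Aire, the regulator of thymic self-antigen expression, with 269 and 358 with IFNγ and 38.2 and 108 with mock at 91 h, against 142 and 117 with IFNγ and 174 and 109 with mock at 23.5 h. Its mock libraries lay far apart at both times (change 2.21, SE 0.49, limma adjusted p = 0.0087). Rny3, a Y RNA, had 57.3 and 29.5 with IFNγ and 29.5 and 39.3 with mock at 91 h, against 15.3 and 18.1 with IFNγ and 63.5 and 56.9 with mock at 23.5 h. Its arms overlapped at 91 h and were apart at 23.5 h. The other genes among the 10 highest changes were the pseudogene Mnd1-ps (2.19), the 5S ribosomal RNA gene n-R5s193 (1.99), the histone H4 gene Hist1h4a (1.94), the snRNA gene Gm25939 (1.92) and Fhad1 (1.78), besides Ankrd37 and Tlr1.

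Small RNA genes as a class went the same way as Rny3: 9 of 26 tested were called higher (0.455% of all genes tested), with a median log2 ratio of 0.22 at 91 h against -0.95 at 23.5 h. Of 27 histone cluster genes, whose transcripts mostly lack a poly(A) tail, 2 were called higher, with a median of -0.45 at 91 h against -1.01 at 23.5 h. The libraries were made from polyA RNA. Rn18s-rs5, an 18S ribosomal RNA, took a share of all gene reads of 11.8% with IFNγ and 14.2% with mock at 91 h, against 9.47% with IFNγ and 12.4% with mock at 23.5 h. The part of RNA selection in these calls was not tested. Without the first library of IFNγ or of mock at 23.5 h Gm22973 was no longer called (2.18 and 2.23).

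Cell cycle genes fell strongly in both arms. All 30 G2/M genes and all 29 S phase genes fell 2-fold or more in both arms, by a median of -5.28 with IFNγ and -5.09 with mock for G2/M and -3.32 with IFNγ and -3.36 with mock for S phase, and 0 of either list was called. By limma alone the effect was lower in 2 G2/M and 7 S phase genes. Over all genes tested limma alone gave 5.35% lower and 3.94% higher. Among 25 genes of the ATF4-CHOP stress pathway, 17 rose with IFNγ and 19 with mock, and 1, Atf3, was called lower while 11 were lower by limma alone. Of 18 p53 targets 12 rose in each arm and 0 were called, with 3 lower by limma alone. Pigment genes (13 tested), ribosomal protein genes (37), lysosomal genes (21), ER chaperone genes (20), sterol genes (24), and surface, adhesion and matrix genes (34) held 0 calls, with 2, 0, 4, 4, 5 and 4 genes lower and 0, 0, 0, 0, 0 and 3 higher by limma alone, in that order. Immediate early genes held 1 call (Atf3 again) of 21 and NF-κB genes 1 (Tnfaip3, higher) of 13.

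Genes that the mock tables do not list could not be given an effect, and several of the strongest IFNγ genes are among them. At both times 118 genes were listed with IFNγ while mock was not listed at 1 or both times (26 at both, 30 at 91 h and 62 at 23.5 h). Of these, 38 had a level of 20 or more with IFNγ at 23.5 h that was 2-fold or more over T0. Of the 38, 27 had a lower IFNγ level at 91 h than at 23.5 h. Genes under that level were not counted. Some of them, such as Xdh and Rapgef5, were also 2-fold over T0 at 23.5 h and were higher with IFNγ at 91 h. Psmb9, a catalytic immunoproteasome subunit, was at 437 and 349 with IFNγ and 22.9 and 33.7 with mock at 91 h, against 1751 and 1727 with IFNγ at 23.5 h. Psmb8 likewise stood at 301 and 284 with IFNγ and 39.3 and 46.4 with mock at 91 h, against 1394 and 1426 with IFNγ at 23.5 h. Cd74, the invariant chain of class II, had 1652 and 1383 with IFNγ and 452 and 524 with mock at 91 h, against 2635 and 2797 with IFNγ at 23.5 h. Zbp1, a sensor of Z-form nucleic acid, had 185 and 170 with IFNγ and 22.9 and 21.1 with mock at 91 h, against 1842 and 2127 with IFNγ at 23.5 h. Gbp9 went the other way, with 529 and 434 with IFNγ at 91 h against 165 and 207 with IFNγ at 23.5 h. In the class II list 2 genes could be tested, and H2-DMb1, a peptide exchange factor, was called lower (-1.79) by its IFNγ level alone.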

How the data were processed

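PolyA RNA-seq of 7 samples was used as 6 deposited tables, each setting T0 against 1 other group; 4 entered the comparisons. The deposited signal columns hold, per the file headers, the authors' mean level per gene and group, which acts as a mean of reads each over a size factor. The deposited log2 and p-value columns are the authors' own comparisons with T0 and were not used. STAR 2.5.0a, HTSeq 0.5.3, Picard 1.124 and DESeq are named in the submitters' processing notes, with build mm10 (GRCm38). For the annotation, strand setting and listing filter nothing is stated.

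Whole reads of 2 libraries per group were solved from each mean within 1.2 times its rounding error at 10 digits (156379 of 157036 values, 99.6%, gave 1 solution). T0 reads solved from 2 or more tables differed in 0 of 13282 genes. At levels of 3000 or more a solution also had to keep the libraries within a log2 ratio of 2. Entries that name no gene, 4 in each table but the IFNγ one of 23.5 h, hold 57.1% to 70.3% of a listed total and were left out. Tables were put on 1 scale by the median ratio of their T0 columns, and every IFNγ against mock value rests on this step.

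limma 3.58.1 (R 4.3.3, variance trend) was fitted to log2(normalised reads + 1) of 8 libraries, two-sided, with Benjamini-Hochberg adjustment over all 12515 genes; the pseudocount of 1 understates changes of low genes. Printed changes and log2 ratios come from group means, and SEs and p from limma. The 46 members without solved reads were not tested; 7 changed 2-fold or more by means alone, among them Ldha (1.13). A symbol was taken from the annotation for 19 genes and 6 identifiers share one. Unused value columns numbered 0. The code was tested on simulated data. Python 3.11.15, numpy 2.4.6, pandas 2.3.3 and matplotlib 3.10.9 were used. Named genes were the 10 lowest and 10 highest called changes, 20 set genes and up to 4 called members per list (with none called, its largest change); further genes are other list members or were chosen after their values were seen. Members and lists were chosen with earlier results of these data known. Alternatives were pseudocounts of 0.5 and 5, level limits of 50 and none, 2 other scalings, no variance trend, a fit of 14 libraries, and each library left out. Results for 1 gene are not reported here.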

Additional observations from a re-analysis of the deposited data

Results flagged for a closer look

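The IFNγ effect differed between 91 h and 23.5 h, by limma's test of the difference itself and the 2-fold rule, in 125 genes with a lower and 57 with a higher effect at 91 h. In 9 of these the effect also passed limma's test at each time with opposite signs. At 23.5 h none of the 9 log2 ratios reached 2-fold, the smallest in size being 0.26 (Tnfrsf12a) and the largest -0.79 (Prelp). All of the 9 but Prelp lost the call of the change under at least 1 alternative setting. Lower were Wisp1 (change -1.52, limma adjusted p = 1.7e-07), Tnfrsf12a (-1.11, limma adjusted p = 8.3e-07) and Atf3 (-1.11, limma adjusted p = 5.6e-05). All 3 had a negative log2 ratio at 91 h and a positive one at 23.5 h, and levels that were higher at 91 h in both arms. Wisp1, a WNT-inducible secreted factor, stood at 894 and 1009 with IFNγ and 2070 and 2316 with mock at 91 h, against 627 and 611 with IFNγ and 503 and 488 with mock at 23.5 h.

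Higher were Map2k6 (1.01, limma adjusted p = 0.0031), Tet1 (1.02, limma adjusted p = 0.00049), Sdc3 (1.06, limma adjusted p = 0.00019), Dhrs3 (1.08, limma adjusted p = 7.2e-05), Prelp (1.48, limma adjusted p = 0.00087) and Tnfaip3 (1.68, limma adjusted p = 0.0035). Dhrs3, a retinal reductase, stood at 3562 and 3086 with IFNγ and 2519 and 2345 with mock at 91 h, against 718 and 757 with IFNγ and 1258 and 1022 with mock at 23.5 h. In data outside the rule, 38 genes without a mock value at 1 or both times stood out with IFNγ at 23.5 h. Their IFNγ level there was 20 or more and 2-fold or more over T0.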

How the results depend on the processing

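With a pseudocount of 5 the genes with a higher effect in which both levels moved numbered 7 in place of 13. Without limma's variance trend 20 genes had a higher effect in place of 57, of which 8 moved by the mock level alone, 3 by the IFNγ level alone and 4 on both sides, and by limma alone 233 were lower and 112 higher. One fit over all 14 libraries, which takes in the divergent IFNγ libraries of 48 h (SD 0.419), gave 80 lower and 12 higher; among the lower 6 moved by the IFNγ level alone and 23 on both sides, and among the higher 5 by the mock level alone, 3 by the IFNγ level alone and 0 on both sides. The same fit called 30 genes higher at 91 h in place of 61, and 108 lower and 32 higher by limma alone. The cause of these shifts was not tested.

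Leaving out 1 library at a time, which leaves a lone library assumed to vary like the others, gave 117 to 132 lower and 24 to 71 higher. Among the lower, 57 to 66 moved by the mock level alone, 13 to 19 by the IFNγ level alone and 29 to 42 on both sides; among the higher, 6 to 30, 6 to 21 and 4 to 19 in the same order. Called higher at 91 h were 53 to 99 and at 23.5 h 134 to 152, and by limma alone 358 to 654 were lower and 222 to 440 higher. The higher count was 27 without the first IFNγ library at 91 h, 28 without the first IFNγ library at 23.5 h and 24 without the first mock library at 23.5 h, and 99 genes were called higher at 91 h without the first mock library at that time. Under every alternative 78 of the 125 lower genes (65 of them in an interferon list) and 2 of the 57 higher genes, Azgp1 and Prelp, stayed called. Another 3 lower genes (C4b, B2m and H2-T23) and 1 higher gene (Tlr1) had no value under 1 alternative and stayed called under the others, so 44 lower and 54 higher genes lost the call at least once. Of the values of named genes under the alternatives 1057 kept their call or lack of one, 84 lost it, 2 gained one and 0 changed sign. Other scalings moved the median change by under 0.1. No paired analysis was possible because the labels give 1 sample per group and the library numbers only name libraries. Low genes have few reads, so small changes in them were not detectable at this depth.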

Other observations

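Some called genes had a lower level with IFNγ than with mock at 91 h. Nrk, a kinase gene, stood at 7.72 and 8.60 normalised reads with IFNγ and 29.5 and 30.9 with mock at 91 h, against 79.1 and 63.2 with IFNγ and 72.0 and 61.8 with mock at 23.5 h. Both levels were lower at 91 h, the IFNγ level more so, and the arms overlapped at 23.5 h. Fam131b had 30.9 and 30.7 with IFNγ and 101.6 and 105.4 with mock at 91 h, against 36.9 and 41.5 with IFNγ and 38.8 and 51.0 with mock at 23.5 h, so its mock level alone moved. Azgp1, a zinc-binding secreted glycoprotein, went the other way, with 554 and 479 with IFNγ and 186 and 204 with mock at 91 h, against 178 and 176 with IFNγ and 148 and 150 with mock at 23.5 h. Its IFNγ level alone moved, and its change was 1.15 (SE 0.15, limma adjusted p = 0.00026). These genes were chosen after their values were seen.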
